A study of Mus musculus with 42 samples.

Results

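The comparison is of mouse ICM outgrowths (IOs) at day 1 in R2i (IO-1) with those at day 0.5 (IO-0.5). It rests on 4 arrays, 2 of IO-1 and 2 of IO-0.5, out of 42 in the series, and it was read across 10013 genes. Both groups came from immunosurgically isolated inner cell masses of E3.5 blastocysts labelled as the B6 x C3H hybrid, plated on gelatin in N2B27. The study's methods also name CD1 sires, and for the second array run OG2 mice, which carry a GFP reporter of Pou5f1, crossed with these hybrids. Which cross gave each pool is not given in the sources used here. R2i held PD0325901 (PD, which blocks the kinase MEK) at 1 µM and SB431542 (SB, which blocks the type I receptor for TGF-β) at 10 µM, and 1000 U/mL LIF was added in both groups, so that by design only the time in culture differed. Each array held RNA pooled from 30 to 40 outgrowths and was called a biological replicate by the study. The p-values rest on the spread between replicates over all 22 hybrid arrays, ICM and ESC samples included. They do not measure the spread of these 4 pools alone. The question was which genes changed between day 0.5 and day 1 of the derivation of ESCs. A further set of outgrowths, held for 1 day in SB and LIF without PD (SBIO-1, 2 arrays), is given beside some genes. A later day in that medium (SBIO-3, also 2 arrays) is given for a few.

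The ICM of the late blastocyst holds precursors of the epiblast, which gives rise to the embryo and to ESCs, and of the primitive endoderm, which gives rise to the yolk sac and lays down a basement membrane of laminin and collagen IV. FGF signalling through MEK and ERK drives the choice for primitive endoderm, and Gata6, Sox17, Gata4 and Sox7 are switched on along that path, while Nanog, Pou5f1 (Oct4) and Sox2 maintain the epiblast. The trophectoderm, the outer layer that immunosurgery is meant to remove, is marked by Cdx2, Eomes, Gata2, Gata3 and keratins.

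Levels are given on a normalized log2 scale, on which 1 unit is a 2-fold difference, and a gene was called detected on an array where its detection p was under 0.05. IO-1 replicate 1 was dim, with 33% of probes detected, against 43.4% in IO-1 replicate 2, and the IO-0.5 arrays had 34.7% and 34.3%. The dimmest detected probe of these 4 arrays stood between 4.69 and 5.32. On the ICM arrays, of which 24.2% and 18% of probes were detected, it stood at 6.41 and 7.41, so lower ICM levels in the text are not above background. IO-1 replicates correlated at a Pearson's r of 0.968 over 13923 kept probes and IO-0.5 replicates at 0.947, while pairs from different groups lay between 0.936 and 0.938. By the probes that differed most in each pair, IO-1 replicates were 1.59 log2 apart. The IO-0.5 replicates were 2.42 apart, which lies in the range of 2.41 to 2.54 for arrays of different groups. IO-1 replicate 2 resembled IO-2 replicate 2 (r = 0.972) slightly more than its own partner.

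Markers of the ICM were present at both times. Pou5f1, Nanog, Sox2 and Sall4 were detected on all 4 arrays. Cdx2, the trophectoderm factor, was also bright on all 4, at 11.22 and 11.05 in IO-1 and 11.93 and 11.89 in IO-0.5.

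Between the 2 times 340 genes were called as differentially expressed (DEGs, called at a change of 2-fold or more with an adjusted p of 0.01 or less), which is 3.4% of the genes tested. Of them 214 were higher in IO-1 (2.14% of genes tested) and 126 were lower (1.26%). The median change of all genes was 0.00752 log2. All 340 had arrays that did not overlap between IO-1 and IO-0.5, as was true of 4382 of the genes tested (43.8%). Of the 214 higher genes 79 were not detected on either IO-0.5 array, and of the 126 lower genes 14 were not detected on either IO-1 array. In pools such as these, fewer cells of a type and less RNA per cell cannot be told apart. Calls depended on single arrays: there were 168 without IO-1 replicate 1, 198 without IO-1 replicate 2, 380 without IO-0.5 replicate 1 and 350 without IO-0.5 replicate 2. With only these 4 arrays in the fit 1 gene, Ctsll3, was called.

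**Figure D1:**
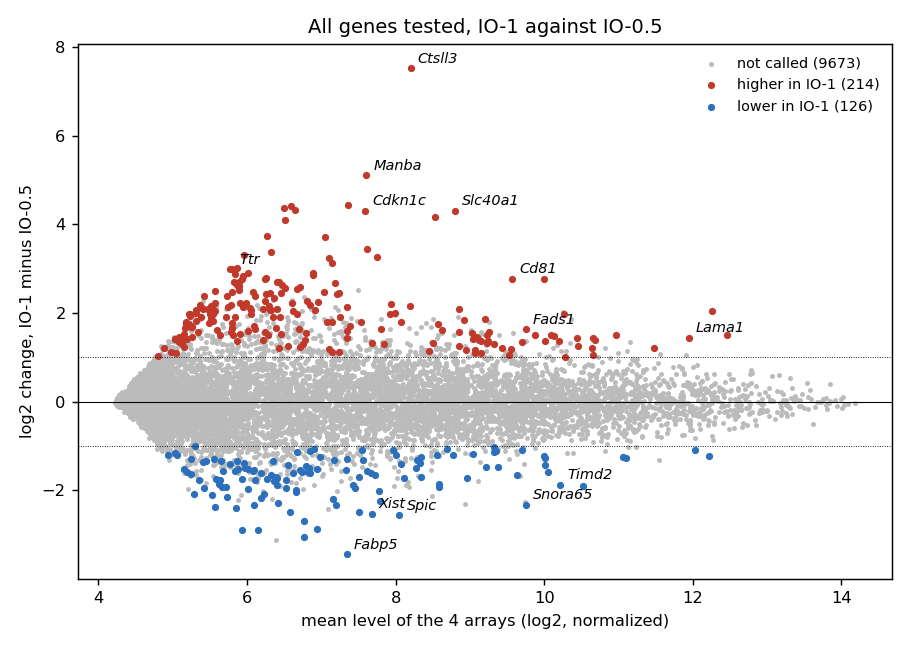
Each point is 1 of 10013 genes, with the mean level of the 4 arrays on the x axis (log2, normalized) and the log2 change of IO-1 minus IO-0.5 on the y axis. Red points are the 214 genes called higher in IO-1, blue points the 126 called lower, and dotted lines mark a 2-fold change. Ctsll3 stands alone at 7.52, and the lowest point is Fabp5 at -3.44.

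The largest rise by far was that of Ctsll3, a cathepsin L-like protease. It stood at 11.84 and 12.08 in IO-1 and at 4.66 and 4.23 in IO-0.5, where it was not detected. The fitted change was 7.52 log2 (SE 0.27, adjusted p = 1.87e-10). Since IO-0.5 gave only a bound, the rise was at least 109-fold, taking for each IO-0.5 array the larger of its value and its dimmest detected probe. In SBIO-1 it was at 4.27 and 4.25, and in IO-2 at 11.54 and 11.70. Later without PD, in SBIO-3, it was at 8.81 and 9.79, and the days between were not sampled in that medium. Ctsll3 lies on chromosome 13 among related genes, and whether its probe also binds their transcripts was not tested.

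Manba, which codes for the lysosomal enzyme beta-mannosidase, had levels of 10.00 and 10.31 in IO-1 and 4.94 and 5.16 in IO-0.5. Its rise was at least 31.4-fold (log2 5.11, SE 0.53, adjusted p = 3.02e-05). Manba was also bright in SBIO-1, at 10.74 and 10.86, and was at 8.68 and 6.23 in the ICM. Slc40a1 codes for ferroportin, the iron exporter of the cell. It was at 10.74 and 11.17 in IO-1 and at 6.39 and 6.90 in IO-0.5, a 19.8-fold rise (log2 4.31, SE 0.31, adjusted p = 1.25e-06). In SBIO-1 Slc40a1 was at 7.40 and 7.32, closer to IO-0.5 than to IO-1.

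Pga5, a pepsinogen, rose a fitted 21.6-fold (adjusted p = 5.96e-07), and was detected on 1 of the 2 IO-0.5 arrays. Sh3gl2 (endophilin A1, of synaptic vesicle endocytosis) and Stmn2 (a stathmin that destabilizes microtubules) are best known from neurons. Sh3gl2 was at 9.00 and 8.60 in IO-1 against 4.42 and 4.37 in IO-0.5, at least 12.2-fold higher (adjusted p = 9.57e-06). Stmn2 was at 8.77 and 8.59 in IO-1 against 4.27 and 4.37 in IO-0.5, at least 11.3-fold higher (adjusted p = 1.38e-06). Neither was detected on any IO-0.5 array, and both were also bright in SBIO-1, at 9.83 and 9.23 for Sh3gl2 and 9.46 and 8.96 for Stmn2. The neuronal gene Syn1, coding for synapsin I, was chosen after its values were seen and rose as well, by at least 4.24-fold, at 7.09 and 7.44 in IO-1 and 4.24 and 4.31 in IO-0.5 (adjusted p = 0.000221).

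The other rises of this size were those of Fhl1 (a LIM domain protein, at least 12.3-fold), Trim32 (a ubiquitin ligase, at least 10.3-fold) and Akr1c19 (an aldo-keto reductase, at least 7.72-fold). Bex2, an X-linked gene detected on 1 IO-0.5 array, rose a fitted 13.2-fold and Trh, the precursor of thyrotropin-releasing hormone, 10.9-fold. Bmper, a secreted BMP-binding protein, and Col18a1, a basement membrane collagen, rose at least 7.07-fold and 5.34-fold, and Bmper missed the limit without IO-1 replicate 2 (adjusted p = 0.0108). Adjusted p values of these 7 genes lay between 3.50e-08 (Fhl1) and 0.000725 (Bmper). Further probes did not all move as far. The second probe of Trim32, detected on 1 of the 4 arrays, differed by 0.903 log2 and that of Col18a1, also on 1, by -0.191, while 2 further probes of Bex2 differed by 2.12 and 0.421.

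**Figure D2:**
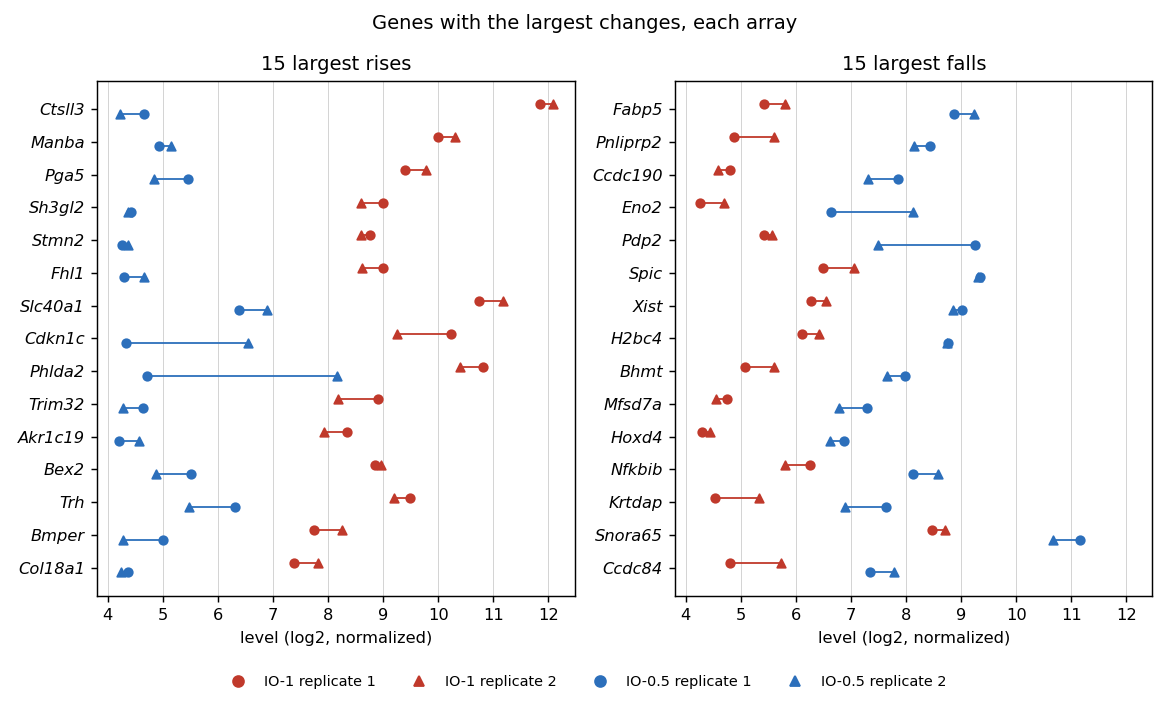
Levels (log2, normalized, x axis) of the 15 genes with the largest rises and the 15 with the largest falls on each array, with IO-1 in red above IO-0.5 in blue, circles for replicate 1 and triangles for replicate 2. The 30 were chosen among genes whose groups do not overlap, and the widest gap between replicates is that of Phlda2 in IO-0.5, at 4.72 and 8.17.

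Fabp5, a carrier of fatty acids, had the largest fall. It was at 5.43 and 5.80 in IO-1 and at 8.88 and 9.24 in IO-0.5, 10.9-fold lower in IO-1 (log2 -3.44, SE 0.33, adjusted p = 1.24e-05). The mouse genome holds close copies of Fabp5, and whether its probe separates them was not tested. Pnliprp2, a lipase related to that of the pancreas, was at 4.88 and 5.60 in IO-1 and 8.44 and 8.15 in IO-0.5 (1 IO-1 array detected, a fitted 8.31-fold lower, adjusted p = 2.48e-06). Both stayed dim in IO-2, at 4.61 and 4.58 for Fabp5 and 4.90 and 4.95 for Pnliprp2. Xist, the noncoding RNA that coats the inactive X chromosome, was at 6.28 and 6.55 in IO-1 and 9.01 and 8.86 in IO-0.5, 5.74-fold lower (adjusted p = 3.54e-05). H2bc4, a histone H2B, was 5.61-fold lower (adjusted p = 0.000231), and Snora65, a small nucleolar RNA, 4.99-fold lower, at 8.47 and 8.71 in IO-1 against 11.15 and 10.67 in IO-0.5.

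Further falls ended at or near background in IO-1. Krtdap, first known from keratinocytes, was at 4.54 and 5.33 in IO-1, detected on 1 array, and 7.63 and 6.89 in IO-0.5. Hoxd4, a homeobox gene, was at 4.30 and 4.45 in IO-1, where it was not detected, and 6.88 and 6.62 in IO-0.5, at least 3.36-fold lower. Mfsd7a was not detected in IO-1 either and was at least 4.12-fold lower. Krtdap, Ccdc84 and Eno2 (the neuronal enolase), each detected on 1 IO-1 array, had fitted changes of -2.33, -2.29 and -2.90 log2. Adjusted p of these 5 genes lay between 2.26e-06 and 0.000314, and none of them was detected in the ICM. Without IO-0.5 replicate 1 the change of Eno2 was -3.68 log2 and without IO-0.5 replicate 2 it was -2.18. Nfkbib (an inhibitor of NF-κB) fell by 2.33 log2. Ccdc190 was not detected in IO-1 and was at least 6.01-fold lower, while a second probe of it differed by -0.225 log2. Pdp2, a phosphatase of pyruvate dehydrogenase, fell by 2.88 log2 (adjusted p = 0.00967), and missed the limit without IO-1 replicate 1 (0.0632), IO-1 replicate 2 (0.0455) or IO-0.5 replicate 1 (0.0906). Its change was -2.02 log2 without IO-0.5 replicate 1 and -3.77 without IO-0.5 replicate 2.

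Part of the genes of the primitive endoderm rose. Of 22 listed, 19 were tested and 7 rose (36.8% called, against 3.4% of all genes tested). None fell and 12 did not pass, and the fitted change was above 0 in all 19. Their median change was 1.21 log2, against 0.00752 over all genes. Their summed level on the linear scale was 23820 and 26710 in IO-1, against 9803 and 9752 in IO-0.5. Trophoblast and visceral endoderm genes, given next, moved less, and the part of cell makeup in these values was not tested. The list was drawn up with earlier results of these data known and differs from the study's own. Timd2, which the study's supplement places with primitive endoderm, fell and is counted below among preimplantation genes.

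Sox7, a transcription factor of the later steps of endoderm formation, was at 7.11 and 7.82 in IO-1 and at 4.56 on both IO-0.5 arrays, where it was not detected. The rise was at least 4.86-fold (log2 2.91, SE 0.37, adjusted p = 0.000183). Amn (amnionless, a partner of cubilin in absorptive endoderm) was at 11.31 and 11.44 in IO-1 and 8.37 and 8.86 in IO-0.5, a 6.79-fold rise (adjusted p = 0.000507). Both had higher levels still in SBIO-1, at 9.05 and 9.38 for Sox7 and 12.95 and 12.81 for Amn. Pdgfra, the receptor that marks primitive endoderm precursors, rose 3.66-fold, Srgn (the proteoglycan serglycin, detected on 1 IO-0.5 array) a fitted 6.53-fold and Dab2, an endocytic adaptor, 2.31-fold. These 3 calls missed the limit without IO-1 replicate 2 (adjusted p = 0.0251, 0.0163 and 0.0156), and those of Pdgfra and Dab2 also without IO-1 replicate 1 (0.0354 and 0.0216). So did Pdgfra without IO-0.5 replicate 2 (0.042) and Dab2 without IO-0.5 replicate 1 (0.0139).

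The upstream factors of the lineage were not among the DEGs. Gata6 was at 9.44 and 9.87 in IO-1 and 9.28 and 9.07 in IO-0.5 (log2 0.48, SE 0.41, adjusted p = 0.605). Sox17 differed by 0.65 log2 (SE 0.25, adjusted p = 0.142), and a second Sox17 probe, detected on all 4 arrays, by -0.406. Gata4 was detected on 1 IO-1 array and on neither IO-0.5 array.

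**Figure D3:**
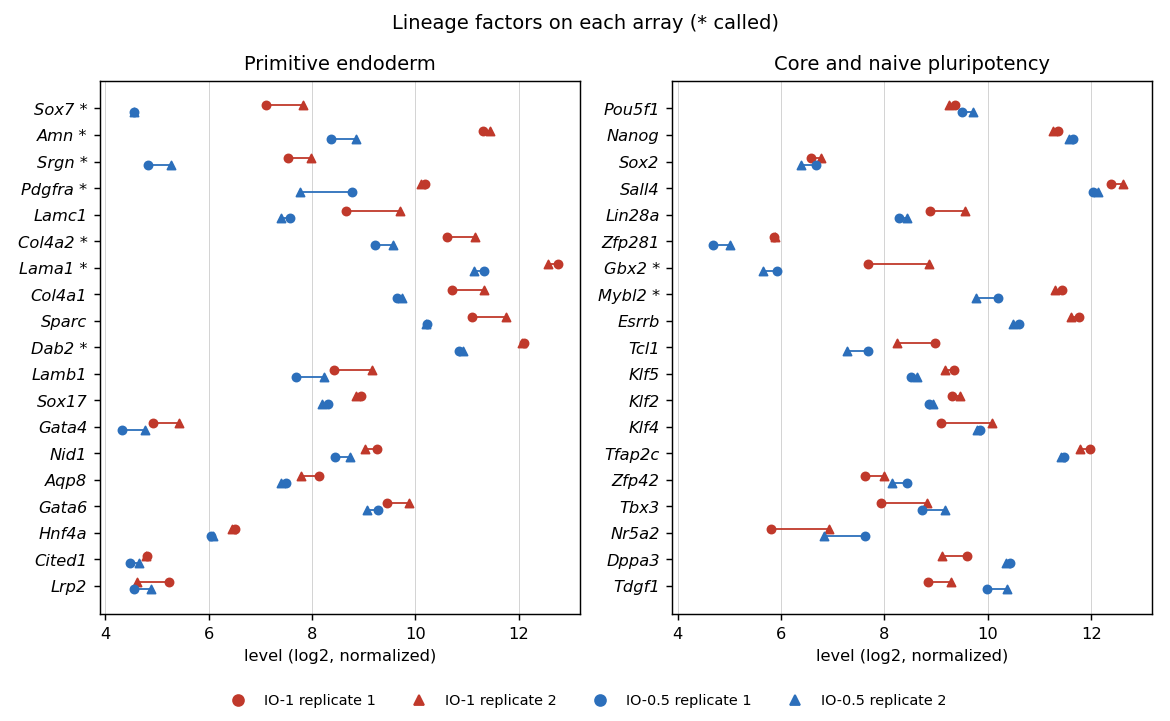
Levels (log2, normalized, x axis) of the 19 primitive endoderm genes tested and of 19 core and naive pluripotency genes on each array, with IO-1 in red above IO-0.5 in blue, circles for replicate 1, triangles for replicate 2 and an asterisk for DEGs. The IO-1 means lie to the right of the IO-0.5 means for all 19 endoderm genes, and on both sides for the pluripotency genes.

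The basement membrane list overlapped with this one. Of its 25 genes 21 were tested, and 4 rose while none fell (19% called, against 3.4% of all genes tested). The median change was 0.586 log2. Lama1, a laminin chain, was at 12.76 and 12.57 in IO-1 and 11.32 and 11.13 in IO-0.5 (2.71-fold, adjusted p = 0.0018), and Col4a2, a chain of collagen IV, rose 2.80-fold (adjusted p = 0.00363). Nid2, nidogen 2, which links laminin to collagen IV, rose 2.38-fold (adjusted p = 0.00291). Their partners did not pass, with changes of 1.32 log2 for Col4a1 (adjusted p = 0.0328), 1.69 for Lamc1 (0.373) and 0.84 for Lamb1 (0.411). The steepest of the list was Cd81, a tetraspanin of the cell surface, at 10.97 and 10.95 in IO-1 and 8.38 and 7.99 in IO-0.5 (6.84-fold, adjusted p = 2.26e-06). Cd81 was at 4.24 and 4.32 in the ICM and at 12.32 and 12.40 in IO-2. Lama1 missed the limit without IO-1 replicate 1 (adjusted p = 0.0217) and IO-0.5 replicate 2 (0.0131), Col4a2 without IO-1 replicate 2 (0.0461) and IO-0.5 replicate 1 (0.0269), and Nid2 without IO-1 replicate 1 (0.0134), IO-1 replicate 2 (0.0283) or IO-0.5 replicate 2 (0.017). Podxl, the apical sialomucin podocalyxin, was at 8.35 and 8.30 in IO-1 and 5.50 and 5.43 in IO-0.5, a 7.24-fold rise (adjusted p = 2.42e-05).

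Genes of the visceral endoderm, the later derivative, gave 1 call in 7 tested of 15 listed (14.3%, against 3.4% of all genes tested). Ttr, transthyretin, which carries thyroid hormone, was at 7.57 and 7.03 in IO-1 and 4.32 and 4.29 in IO-0.5, where it was not detected (at least 4.33-fold, adjusted p = 8.30e-06). The carriers Apoe and Apoa1 differed by -0.33 and -0.59 log2 and were not called. Apoa1 depended on the IO-0.5 arrays, at -1.91 log2 without IO-0.5 replicate 1, where it was called (adjusted p = 0.00319), and 0.72 without IO-0.5 replicate 2. The summed level of the 7 was 1132 and 1140 in IO-1 and 899 and 668 in IO-0.5.

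Some trophoblast genes rose. Of 26 listed, 21 were tested, and 4 rose (19% called, against 3.4% of all genes tested) while none fell. Their median change was 0.189 log2, and their summed level was 26530 and 27920 in IO-1 and 24360 and 25260 in IO-0.5. Krt19, a keratin of simple epithelia, was at 7.28 and 7.19 in IO-1 and 4.23 and 4.84 in IO-0.5, where it was not detected (at least 4.14-fold, adjusted p = 1.25e-05). Krt7 rose 2.65-fold, Gata2 2.08-fold and Plac1, a placental gene of the X chromosome, 2.13-fold. Gata2 had levels of 11.21 and 11.15 in IO-1 and 10.33 and 9.92 in IO-0.5. It stood at 4.68 and 4.62 in the ICM and 7.41 and 7.17 in SBIO-1. Against SBIO-1, all 4 were brighter in IO-1, by 2.93 (Krt19), 4.57 (Krt7), 3.89 (Gata2) and 1.47 log2 (Plac1). In SBIO-3 all 4 were brighter than in SBIO-1, with means of 6.41 (Krt19), 8.69 (Krt7), 10.05 (Gata2) and 9.96 (Plac1). The transcription factors Cdx2, Tead4 and Gata3 had lower values in IO-1 that did not pass (log2 -0.78, -0.78 and -0.73, adjusted p = 0.0742, 0.121 and 0.416), and the arrays of Gata3 overlapped. Cdx2, Eomes and Tfap2c of the list were also brighter in IO-1 than in SBIO-1, by 2.30, 2.19 and 2.46 log2. The rest of the list is not given against SBIO-1. The part of trophoblast cells in these values was not tested. Nor was it tested for the gaps to SBIO-1 of other genes, among them Ctsll3, Slc40a1, Cdkn1c and Phlda2.

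The smaller 3 of these calls rested on single arrays. Without IO-1 replicate 1 the adjusted p was 0.0245 for Krt7, 0.05 for Gata2 and 0.0307 for Plac1, and without IO-1 replicate 2 it was 0.0189, 0.0337 and 0.0496 in the same order. Without IO-0.5 replicate 1 Krt7 (0.0239) and Plac1 (0.0609) were lost, and without IO-0.5 replicate 2 Gata2 (0.0584).

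Of the pluripotency network 2 genes were called, both of the naive list. None of the 6 core factors passed, with a median change of 0.279 log2. Pou5f1 was at 9.38 and 9.24 in IO-1 and 9.50 and 9.72 in IO-0.5 (log2 -0.30, SE 0.45, adjusted p = 0.817), and Nanog at 11.37 and 11.26 in IO-1 and 11.65 and 11.58 in IO-0.5 (log2 -0.30, SE 0.26, adjusted p = 0.605). Sox2 overlapped, at 6.57 and 6.78 in IO-1 and 6.68 and 6.39 in IO-0.5.

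Of 24 naive factors 21 were tested, with 2 rises, no fall and a median change of -0.148 log2. That is 9.52% called, against 3.4% of all genes tested. Gbx2, a homeobox target of LIF and STAT3, was at 7.69 and 8.86 in IO-1 and 5.93 and 5.66 in IO-0.5, a 5.58-fold rise (log2 2.48, SE 0.33, adjusted p = 0.000268). It was 3.09 log2 without IO-1 replicate 1 and 1.9 without IO-1 replicate 2. It had been at 8.04 and 8.21 in the ICM, and was at 10.57 and 10.27 in SBIO-1. Mybl2, a cell cycle regulator of the Myb family, rose 2.62-fold (adjusted p = 0.00126), and missed the limit without IO-1 replicate 1 (0.0162) or IO-0.5 replicate 2 (0.0129). Esrrb, an orphan nuclear receptor of the naive network, was at 11.76 and 11.61 in IO-1 and 10.61 and 10.49 in IO-0.5. Its groups were apart, but its adjusted p of 0.0217 missed the limit (log2 1.14, SE 0.28). Klf4, Tbx3 and Nr5a2 overlapped between the groups, and Klf2 differed by 0.49 log2 (adjusted p = 0.514). Dppa3 (Stella) was lower in both IO-1 arrays, at 9.59 and 9.11 against 10.43 and 10.36 in IO-0.5, and did not pass (log2 -1.05, SE 0.31, adjusted p = 0.0535). No gene of the formative and primed list was called, of 12 tested, where 3.4% of all genes tested were. Acer1, among the 12, was matched by synonym and is not an epiblast marker. Fgf5 and Pou3f1 were not detected on any of the 4 arrays.

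Genes of the preimplantation embryo gave the largest number of falls of the 47 lists, whose members were chosen with earlier results of these data known. Of 36 listed, 25 were tested, with a median change of -0.553 log2. None rose and 5 fell (20%, against 1.26% of all genes tested). Besides Fabp5 these were Spic, Bhmt, Trim43a and Timd2. Spic, an Ets family factor, was at 6.49 and 7.05 in IO-1 and 9.35 and 9.31 in IO-0.5 (5.89-fold lower, adjusted p = 2.79e-05), and a second probe, detected on 1 of the 4 arrays, differed by -0.852 log2. Bhmt, betaine-homocysteine methyltransferase, was at 5.08 and 5.61 in IO-1 and 7.99 and 7.66 in IO-0.5 (1 IO-1 array detected, a fitted 5.60-fold lower, adjusted p = 2.18e-05). The level of Bhmt in the ICM was higher again, at 10.13 and 10.93. Spic and Trim43a had ICM means of 9.82 and 8.87, above their IO-0.5 means of 9.33 and 8.25. Fabp5 and Timd2 were dimmer in the ICM than in IO-0.5. Fabp5 was at 7.25 and 7.06 there, detected on 1 ICM array, and Timd2 at 10.52 and 10.30.

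Trim43a, a gene of early cleavage embryos, was 4.54-fold lower in IO-1 (adjusted p = 0.000268). Timd2, a receptor that takes up ferritin, was at 9.29 and 9.27 in IO-1 and 11.14 and 11.16 in IO-0.5 (3.65-fold lower, adjusted p = 0.000582). Spic was brighter in IO-1 than in SBIO-1, where it was at 4.45 and 4.57 (log2 2.26, adjusted p = 7.9e-05), and so was Trim43a, at 4.77 and 4.42 in SBIO-1 (log2 1.47, adjusted p = 0.00651). Pramel7, of a family expressed in the ICM and in germ cells, was at 8.72 and 8.95 in IO-1 and 10.45 and 10.58 in IO-0.5, but its adjusted p was 0.0545 (log2 -1.68, SE 0.50).

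**Figure D4:**
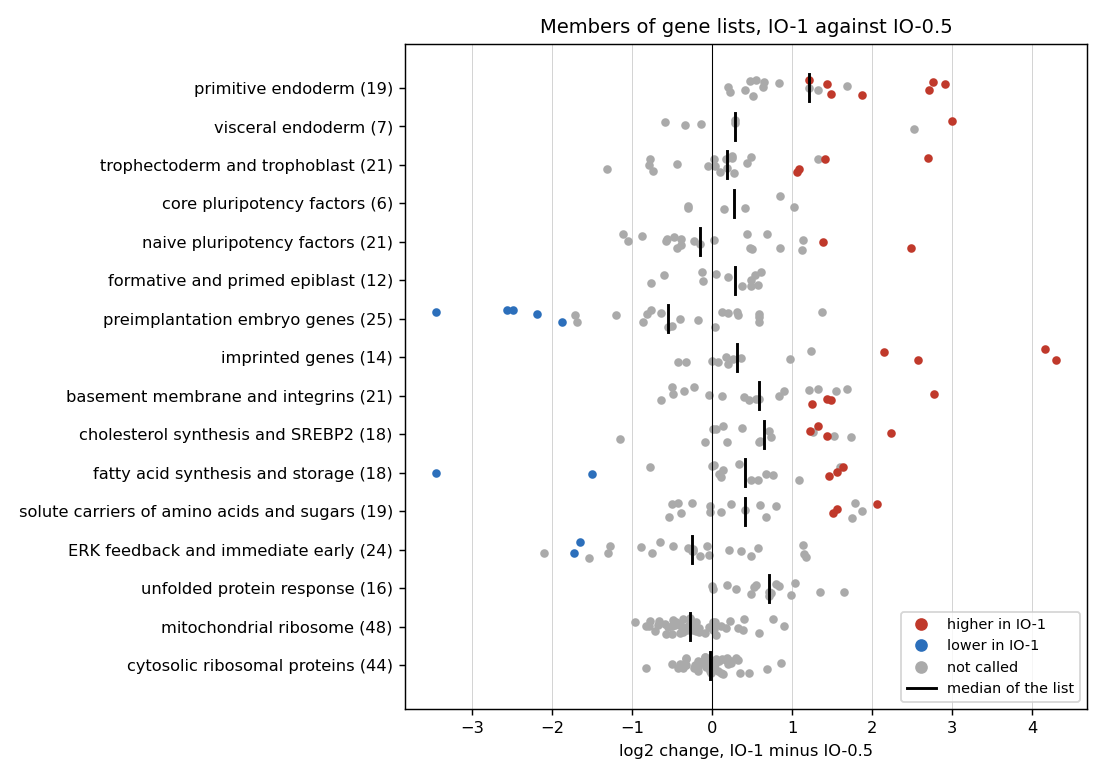
Log2 changes of IO-1 minus IO-0.5 (x axis) for the tested members of 16 gene lists, with the number of members in brackets. Each point is 1 gene, red if it rose, blue if it fell and grey if it was not called, and the black bar is the median of the list. The primitive endoderm points all lie above 0 with a median of 1.21, and the 5 blue points of the preimplantation list reach -3.44.

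Of 14 genes tested in the imprinted list, 4 rose (28.6% called, against 3.4% of all genes tested) and none fell. The median change was 0.31 log2. These 14 include Nckap1 (log2 0.36) and Aggf1 (0.26), which were matched by synonym and are not imprinted genes. Neither was called. Cdkn1c, which codes for the cell cycle inhibitor p57, was at 10.23 and 9.26 in IO-1 and 4.33 and 6.55 in IO-0.5, where only replicate 2 was detected, a fitted 19.7-fold rise (log2 4.30, SE 0.55, adjusted p = 0.000183). Phlda2, which restrains growth of the placenta, was at 10.81 and 10.39 in IO-1 and at 4.72 and 8.17 in IO-0.5, so that the IO-0.5 arrays lay far apart and only replicate 2 was detected. Its fitted rise was 17.8-fold (log2 4.16, SE 0.67, adjusted p = 0.0013), and it missed the limit without IO-1 replicate 1 (log2 3.97, adjusted p = 0.0179). Its size depended on which IO-0.5 array was used: without IO-0.5 replicate 1 the change was 2.43 log2 for Phlda2 and 3.2 for Cdkn1c, and without IO-0.5 replicate 2 it was 5.91 and 5.45.

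Both lie on chromosome 7 and both are expressed from the maternal copy. In SBIO-1 they were far dimmer than in IO-1, at 6.95 and 6.28 for Cdkn1c and 7.26 and 7.41 for Phlda2. In SBIO-3 they were near their IO-1 levels, at 10.80 and 9.71 for Cdkn1c and 10.96 and 10.36 for Phlda2. Igf2, the growth factor expressed from the paternal copy, rose 4.43-fold (adjusted p = 0.00975), and Grb10, an adaptor that damps insulin signalling, a fitted 5.95-fold (adjusted p = 0.00158), with 1 IO-0.5 array detected. Igf2 was lost without IO-1 replicate 1 (0.047), IO-1 replicate 2 (0.0637) or IO-0.5 replicate 2 (log2 1.24, 0.087), and stood at 3.07 log2 without IO-0.5 replicate 1. Grb10 was lost without IO-1 replicate 2 (0.0203) or IO-0.5 replicate 2 (0.017).

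Some enzymes of sterol synthesis rose. Cholesterol synthesis runs from acetyl-CoA over mevalonate and squalene to lanosterol and cholesterol, and its genes are targets of SREBP2, which is activated when sterols are low. Of 18 such genes tested, of 24 listed, 4 rose (22.2% called, against 3.4% of all genes tested) and none fell. Changes were above 0 in 16 of the 18, against 5081 of 10013 genes tested, and the median was 0.655 log2. Sqle, squalene epoxidase, was at 10.81 and 11.51 in IO-1 and 9.70 and 9.75 in IO-0.5 (2.71-fold, adjusted p = 0.000666), and a second probe, detected on 1 of the 4 arrays, differed by 0.518 log2. Cyp51, the lanosterol demethylase, was at 6.91 and 7.14 in IO-1 and 4.60 and 4.97 in IO-0.5, where it was not detected (at least 3.57-fold, adjusted p = 6.67e-05). Fdps, which makes farnesyl diphosphate, and Lss, lanosterol synthase, rose 2.33-fold and 2.51-fold (adjusted p = 0.00377 and 0.00438).

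Lss lost its call without any 1 of the 4 arrays (adjusted p = 0.0142 to 0.0461), and Fdps without IO-1 replicate 1 (0.0176), IO-1 replicate 2 (0.0359) or IO-0.5 replicate 1 (0.0372). Msmo1, a sterol oxidase, and Hmgcs1, which makes HMG-CoA, differed by 1.27 and 0.71 log2 and were not called (adjusted p = 0.075 and 0.221).

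The promoters of these genes were read from the RefSeq table (build GRCm38.p6), which gives 250 bases before and 50 after a start site. It holds 15 of the 18 genes tested. The CCAAT box, searched as the letters CCAAT on both strands, was present in at least 1 promoter of all 15, in 15 of their 18 windows, against 37.4% of 32851 promoters. An SREBP element written as TCACNCCAC was present in 1 gene, Hmgcs1, and in 1.24% of all promoters. Other forms of the element were not searched, so this count does not show which genes lack one. A match of letters is a description and shows no binding. The promoters of the 2 DEGs in the table, Cyp51 (chr5:4104648-4104947, minus strand) and Lss (chr10:76531355-76531654, plus strand), are shown with the box in capitals, starting 29 and 62 bases before the start site.
Cyp51: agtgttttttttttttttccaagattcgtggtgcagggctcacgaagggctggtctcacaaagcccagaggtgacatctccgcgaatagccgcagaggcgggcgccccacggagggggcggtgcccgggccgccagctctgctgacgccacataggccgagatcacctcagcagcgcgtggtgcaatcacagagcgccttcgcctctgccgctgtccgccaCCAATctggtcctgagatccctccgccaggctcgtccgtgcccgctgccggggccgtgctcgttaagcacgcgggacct
Lss: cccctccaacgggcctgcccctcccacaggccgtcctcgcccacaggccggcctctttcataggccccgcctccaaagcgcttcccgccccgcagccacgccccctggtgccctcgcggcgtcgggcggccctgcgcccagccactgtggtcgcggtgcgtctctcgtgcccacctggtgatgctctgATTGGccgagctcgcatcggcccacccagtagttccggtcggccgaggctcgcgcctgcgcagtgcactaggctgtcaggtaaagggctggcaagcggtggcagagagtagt

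For fatty acids, 18 genes of 20 listed were tested, and 3 rose while 2 fell (27.8% called, against 3.4% of all genes tested). Fads1, a desaturase of long chains, was at 10.59 and 10.55 in IO-1 and 8.98 and 8.89 in IO-0.5 (3.10-fold, adjusted p = 6.51e-05). Scd1, which makes oleate from stearate, rose 2.74-fold and Acaca, the acetyl-CoA carboxylase that starts the pathway, 2.95-fold (adjusted p = 0.000924 and 0.00586). Acaca was at 10.12 and 10.03 in the ICM, 7.73 and 8.77 in IO-0.5 and 9.56 and 10.06 in IO-1, so its day 1 level was near that of the ICM. The falls were those of Fabp5, the carrier described above, and of Dgat1, which makes triglycerides for storage (1 IO-1 array detected, a fitted 2.84-fold lower, adjusted p = 0.00137). Acaca missed the limit without IO-1 replicate 1, IO-1 replicate 2 or IO-0.5 replicate 1, with an adjusted p of up to 0.0653, and its change lay between 1.04 and 2.09 log2 without any 1 array. The limit was also missed by Scd1 without IO-1 replicate 2 (0.0122) and Dgat1 without IO-1 replicate 1 (0.0192).

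Carriers of amino acids and sugars rose in 3 of 19 tested (15.8% called, against 3.4% of all genes tested). No carrier fell, and the median change was 0.414 log2. Slc7a3, a carrier of arginine and lysine, was at 11.87 and 11.58 in IO-1 and 10.18 and 10.24 in IO-0.5 (2.85-fold, adjusted p = 0.000206). Slc38a2, of neutral amino acids, was at 9.50 and 9.76 in IO-1 and 7.95 and 8.18 in IO-0.5 (2.95-fold, adjusted p = 0.000319), but 2 further probes of the gene differed by 0.0755 and -0.277 log2. Slc7a7, detected on 1 IO-0.5 array, rose a fitted 4.16-fold (adjusted p = 0.00362), and was lost without IO-1 replicate 1 (0.0326), IO-1 replicate 2 (0.0205) or IO-0.5 replicate 1 (log2 1.2, 0.0136), and stood at 2.96 log2 without IO-0.5 replicate 2. In the list of glycolysis and hypoxia 1 of 26 genes rose, which at 3.85% is near the 3.4% of all genes tested. Pfkp, a phosphofructokinase, rose at least 4.03-fold (adjusted p = 0.000807), and its second probe differed by -0.2 log2. The list had 22 of 26 changes above 0 and a median of 0.408. It includes Pigq (log2 0.40), which was matched by synonym and is not a gene of glycolysis or hypoxia.

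Genes of ERK feedback and of the immediate early response had a lower summed level in IO-1, at 2810 and 2856, against 5280 and 4777 in IO-0.5. Of 24 tested 2 fell (8.33% called, against 3.4% of all genes tested) and none rose, with a median change of -0.245 log2. Changes were above 0 in 7, and the highest, of Dusp7 (1.17 log2), Il17rd (1.14) and Zfp36 (1.13), did not pass. The 2 that fell were Ier3 (3.29-fold lower, adjusted p = 0.00111), an early gene of growth factor signalling, and Ccn2, connective tissue growth factor. Ccn2 was at 8.64 and 8.98 in IO-1 and 10.60 and 10.33 in IO-0.5 (3.15-fold lower, adjusted p = 0.000708). It was the brightest of the list in IO-0.5 and thus weighed most in that sum. Phlda1 had the lowest change of the list, -2.10 log2, with an adjusted p of 0.0142. Dusp6, a phosphatase induced by ERK, was at 9.25 and 9.41 in IO-1 and 10.12 and 9.52 in IO-0.5 (adjusted p = 0.488). Ier3 missed the limit without IO-1 replicate 1 (0.011), IO-1 replicate 2 (0.0102) or IO-0.5 replicate 2 (0.0117), and Ccn2 without IO-1 replicate 1 (0.0129). Of 16 genes of the Nodal and TGF-β pathway none was called, where 3.4% of all genes tested were, and the median was 0.246.

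In the BMP list 1 of 13 rose (7.69% called, against 3.4% of all genes tested). It was Id1, an inhibitor of differentiation, at 6.12 and 6.33 in IO-1 and 4.37 and 4.44 in IO-0.5, where it was not detected (at least 2.06-fold, adjusted p = 0.000309). Id3 was lower in IO-1 without passing (log2 -1.02, adjusted p = 0.133). Against SBIO-1, where Id1 was at 8.80 and 8.02, it was dimmer in IO-1 (log2 -2.19, adjusted p = 5.67e-05). Snai1, the repressor of E-cadherin that drives EMT, was at 6.99 and 6.85 in IO-1 and 5.27 and 5.77 in IO-0.5, a 2.64-fold rise (adjusted p = 0.00638). In the ICM it was at 7.17 and 6.48. Snai1 missed the limit without IO-1 replicate 1 (0.0498), IO-1 replicate 2 (0.0279) or IO-0.5 replicate 1 (0.051). Cdh1, E-cadherin itself, differed by 0.02 log2, and of 18 genes of EMT and mesenchyme Snai1 was the only call (5.56%).

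Notum, which removes the lipid of Wnt ligands, was the 1 call of 15 Wnt genes (at least 2.41-fold, adjusted p = 0.00426), and it lost that call without any 1 of the 4 arrays (0.0141 to 0.0459). That is 6.67% of the Wnt genes called, against 3.4% of all genes tested. Among 13 germ cell genes 1 rose (7.69%). It was Ifitm1, at 6.19 and 6.86 in IO-1 and 4.38 and 4.73 in IO-0.5, where it was not detected (at least 2.53-fold, adjusted p = 0.00138), and at 9.63 and 9.57 in IO-2. Without IO-1 replicate 2 its adjusted p was 0.0222 and without IO-0.5 replicate 1 it was 0.0106. Msc (musculin), a repressor of the basic helix-loop-helix family, was at 10.69 and 10.24 in IO-1 and 11.87 and 11.60 in IO-0.5 (2.41-fold lower, adjusted p = 0.00432), and missed the limit without IO-1 replicate 2 (0.0542) or IO-0.5 replicate 1 (0.0316).

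Growth machinery had few calls, but over all genes tested only 3.4% were called. Few or no calls in lists of this size thus lie near that share. None of 30 DNA replication genes, 44 cytosolic ribosomal proteins, 26 proteasome subunits, 48 mitochondrial ribosomal proteins or 33 genes of the respiratory chain passed, and 1 of 36 genes of mitosis fell, Mad2l1, of the spindle checkpoint (2.14-fold lower, adjusted p = 0.00628). Of 42 genes of ribosome biogenesis 1 rose, Rrp12 (2.39-fold, adjusted p = 0.00836), which was lost without IO-1 replicate 1 (0.0372), IO-1 replicate 2 (0.0605) or IO-0.5 replicate 1 (0.0769). The medians were 0.207, -0.0315, -0.12, -0.278 and -0.128 log2 for the 5 lists without a call and -0.1 for mitosis. Mad2l1 missed the limit without IO-1 replicate 1 (0.0739), IO-1 replicate 2 (0.0101) or IO-0.5 replicate 2 (0.0451). Cdkn2b, the inhibitor p15, rose beside Cdkn1c (at least 1.75-fold, adjusted p = 0.00656), but not without IO-1 replicate 1 (0.0854), IO-0.5 replicate 1 (0.0234) or IO-0.5 replicate 2 (0.0272).

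Stress lists had few calls. None of 20 heat shock genes or 26 genes of glutathione and metallothionein passed, with medians of 0.00606 and -0.0141 log2. In the amino acid response list 1 of 23 rose, Slc7a3, and 1 fell, Ddit3 (8.7% called, against 3.4% of all genes tested). Ddit3 (CHOP), a factor of the integrated stress response, was at 6.97 and 6.69 in IO-1 and 8.48 and 8.30 in IO-0.5 (2.94-fold lower, adjusted p = 0.000425). It had been at 4.72 and 4.48 in the ICM. Chaperones of the endoplasmic reticulum did not follow it: none of 16 genes of the unfolded protein response passed, but 15 of 16 changes were above 0, and the median was 0.708 log2. Hspa5 (BiP) was at 8.70 and 9.96 in IO-1 and 8.39 and 8.86 in IO-0.5 (adjusted p = 0.528). In the p53 and apoptosis list 1 of 27 rose, which at 3.7% is near the 3.4% of all genes tested. Bbc3 (PUMA) rose by 1.44 log2 (adjusted p = 0.006), while a further probe of it, detected on all 4 arrays, differed by -0.227. Without IO-1 replicate 1, IO-0.5 replicate 1 or IO-0.5 replicate 2 the adjusted p of Bbc3 was 0.0823, 0.0147 or 0.0362. Of 8 genes of fibroblasts and mesenchyme none was called, and their summed level was 316 and 298 in IO-1 and 294 and 372 in IO-0.5. Of 10 genes of blood and macrophages 1 was bright enough to be tested, and it was not called.

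Levels at the other stages were set beside this change, though the arrays are shared and the differences are thus not independent. Some genes had like levels in IO-1 and IO-2: Slc40a1 was at 10.64 and 10.76 in IO-2 and Cyp51 at 6.86 and 7.01. Others rose further by IO-2, such as Col18a1, at 10.48 and 9.94 in IO-2 and 7.39 and 7.81 in IO-1 (log2 2.61 for IO-2 minus IO-1, adjusted p = 0.000151), Stmn2 (log2 1.79, adjusted p = 0.00445) and Bex2 (log2 2.03, adjusted p = 0.000609). The mean levels of Amn, Ttr and Krt19 were lower at each later stage to IO-5 in R2i than in IO-1. By IO-5 Amn was at 6.03 and 5.57, Ttr at 5.70 and 5.78 and Krt19 at 5.50 and 5.12.

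**Figure D5:**
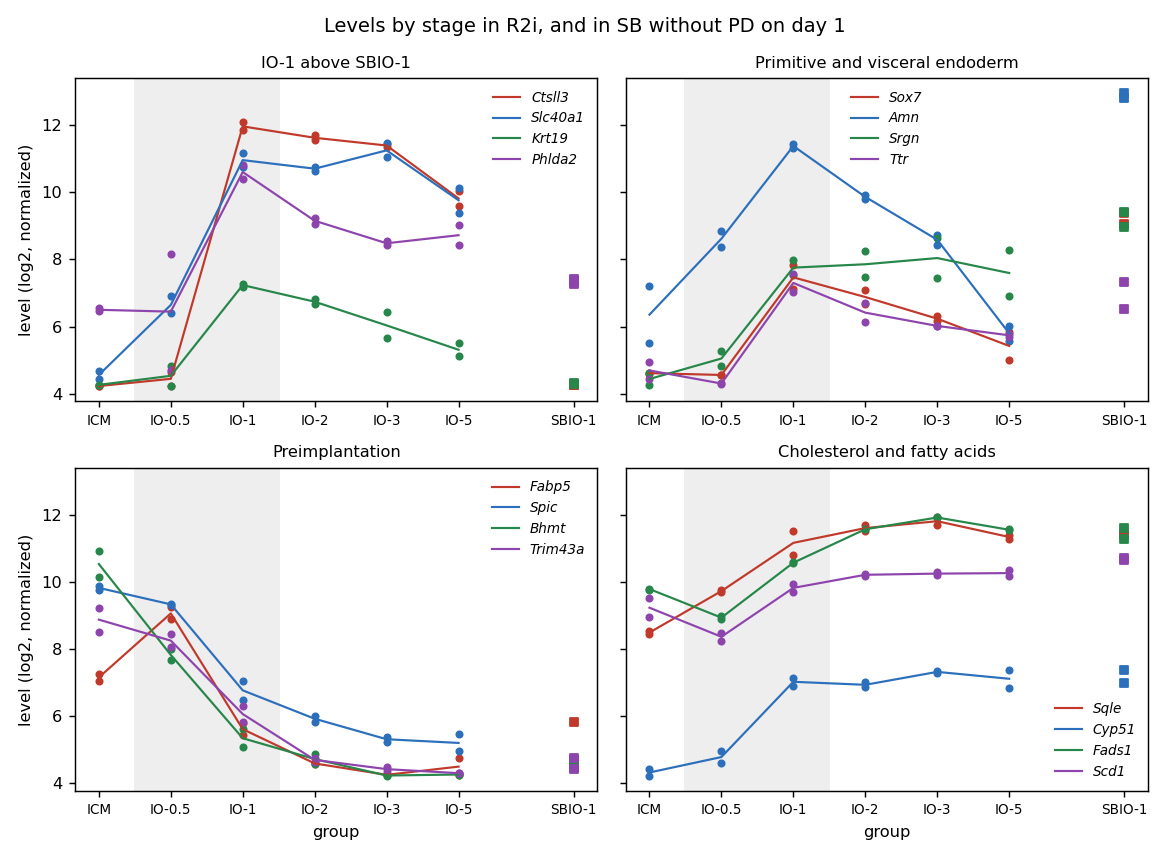
Levels (log2, normalized, y axis) of 16 genes by stage in R2i, with points for single arrays, lines through the means of 2 arrays, grey shading over IO-0.5 and IO-1 and squares for SBIO-1, the outgrowths of day 1 without PD. Ctsll3 is near 12 in IO-1 and near 4 in IO-0.5 and SBIO-1, the endoderm genes Sox7, Amn and Srgn are brighter in SBIO-1 than in IO-1, and the 4 preimplantation genes have lower means in IO-2 than in IO-1.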

How the data were processed

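RNA of the pooled outgrowths was amplified and hybridized to Illumina MouseRef-8 arrays, and the authors exported probe intensity and detection p-values without normalization from GenomeStudio. From these deposited intensity values and detection p-values the 22 hybrid arrays were background corrected and quantile normalized with limma 3.58.1 (neqc, offset 16, R 4.3.3). The log2 table deposited by the authors served as an alternative, and the arrays of the other platform were not used here. Probes detected (p under 0.05) on at least 2 arrays were kept, and the brightest probe stood for each gene. A linear model with 1 coefficient per group was fitted to all 22 arrays, and genes with ≥2-fold change and Benjamini-Hochberg adjusted p ≤ 0.01 in limma were called. The script was tested on simulated data. The text names the 15 largest rises and falls whose groups do not overlap, without clone or predicted symbols, members of 47 gene lists, and genes the study names. Members and lists were chosen with earlier results of these data known. Listed names without a match were looked up by synonym, which brought in unrelated genes such as Nckap1, Aggf1, Pigq and Acer1. Fold bounds use the dimmest detected probe of each array. Array number limits the precision. Gene symbols came from the platform annotation, which gave 1 symbol for 23978 of 25697 probes. Alternatives covered background, normalization, filters, samples, weights and a replicate block.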

Additional observations from a re-analysis of the deposited data

How the results depend on the processing

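All 340 DEGs kept their direction under each of the 18 alternatives that tested them, and no called gene named here changed sign. For several alternatives this was fixed nearly in advance. The groups of all 340 did not overlap, so leaving out 1 array could hardly turn a sign. The adjusted p limit of 0.05 and the replicate block left the fitted changes as they were. The number of calls was less stable. Without background correction 138 genes were called (90 higher, 48 lower), with median scaling 75 (53 higher, 22 lower), which moved the median of all genes to -0.2 log2, and with array weights 159 (112 higher, 47 lower). With only the 4 arrays in the fit 1 gene was called by limma (1 higher, 0 lower), while 1232 genes had an unadjusted p under 0.05. An adjusted p limit of 0.05 gave 617 (368 higher, 249 lower). Leaving out 1 array gave 168 to 380 calls, 106 to 227 higher and 50 to 153 lower. The cause of these differences was not tested, beyond the fewer arrays of the smaller fits. The other alternatives gave 265 to 496 calls. Some genes that were not called with all arrays were called without 1 of them: Pramel6 (-2.68 log2) and Zp3 (1.88) without IO-1 replicate 2, Apoa1 (-1.91), Cdkn1a (2.66), Elf5 (1.85), Insig1 (2.43), Nlrp5 (-2.52), Spink1 (3.91), Stard4 (-2.5) and Tgfbr1 (2.59) without IO-0.5 replicate 1, and Pdia6 (2.7) and Smad2 (3.07) without IO-0.5 replicate 2. Replicate numbers are shared by the groups, but the deviations of same-numbered arrays correlated at r = 0.0405, and with the replicate number as a block 318 genes were called (205 higher, 113 lower). Signal over background limits the dim genes, since the dimmest detected probe of the 4 arrays stood between 4.69 and 5.32 log2.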

Other observations

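Genes of the X chromosome were called more often than those of the autosomes. Of 349 X-linked genes tested 17 rose and 5 fell in IO-1 (6.3% called), against 197 and 120 of 9655 autosomal genes (3.28% called). The median change was 0.015 log2 on the X chromosome and 0.00691 on the autosomes, and the difference was not tested. Bex2, Fhl1, Plac1 and Slc7a3 were among the X-linked rises, and Xist was among the falls. Usp9y, a deubiquitinase gene of the Y chromosome, was at 4.25 on both IO-1 arrays, where it was not detected, and at 7.00 and 5.65 in IO-0.5 (at least 2.5-fold lower, adjusted p = 0.000666 in limma). Its fitted change was -1.42 log2 without IO-0.5 replicate 1 and -2.78 without IO-0.5 replicate 2. The other 3 Y-linked genes tested were not called, with changes of -0.66 log2 for Eif2s3y, 0.32 for Uty and 0.22 for Sly. The share of male and female embryos in each pool is not given in the sources used here, and its part in these values was not tested.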
